A study of Homo sapiens with 8 samples.

Results

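The genes of 7 immune modulators were followed in Karpas299 cells, a CD30-positive line of anaplastic large cell lymphoma, after the receptor CD30 was engaged by its ligand, by an antibody or by both. The genes were CD274 (encoding PD-L1), PDCD1LG2 (PD-L2), CD80, CD86, CD83, IL4I1 and MUC1. They were picked by symbol from the 18850 genes that the array annotation names, and 13 of the 48797 probes carried one of these symbols. The list was drawn up from genes already seen to differ from untreated cells on these same arrays, together with their relatives. Differences from untreated cells are therefore given for the 7 genes as a description, without a test.

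Cells were precultured for 16 h and then kept for 8 h under 4 conditions, each on 2 arrays prepared as biological duplicates. The first group received the fusion protein CD153-Fc and the anti-CD30 agonistic antibody T104 together (labelled "both" in the plots), at 10 µg/ml of each protein. The second received T104 alone at 10 µg/ml, the third CD153-Fc alone at 10 µg/ml, and the fourth was untreated. CD153 is the natural ligand of CD30, and Karpas299 cells carry the NPM-ALK fusion kinase. All groups were a single cell line in the same used medium, and no group analysed here received an Fc protein alone or a control antibody, so an effect of added protein or of the Fc part cannot be told apart from one of CD30.

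PD-L1 and PD-L2 are ligands of the inhibitory receptor PD-1 on T cells, and CD80 and CD86 are the B7 ligands that CD28 and CTLA-4 share. CD83 is a surface protein of activated dendritic cells and lymphocytes. IL4I1 is a secreted L-amino acid oxidase that acts mainly on phenylalanine and also on tryptophan, and its products can activate the aryl hydrocarbon receptor. MUC1 is a transmembrane mucin that T cells express on activation. CD30 is a receptor of the TNF receptor superfamily that signals through TRAF adaptors to NF-kB, and in ALK-positive lymphoma the fusion kinase is known to drive PD-L1 through STAT3.

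The promoters of the 3 genes with the largest differences from untreated cells are shown so that the letters upstream of each can be read beside its levels. RefSeq (GRCh38.p14) gave 9 promoter entries for 6 of the 7 genes, each running from 250 bases before to 50 bases after a start site. PDCD1LG2 had none among them. Searches on either strand covered 2 NF-kB patterns that can overlap each other, GGGA followed by any 2 bases and TTCC, and GGGAA followed by any 3 bases and CC. They also covered the STAT letters TTCNNNGAA and the AP-1 letters TGANTCA. Capitals mark the matches. The second CD83 entry lay at chr6:14117522-14117821 on the plus strand, the CD274 entry at chr9:5450292-5450591 on the plus strand and the IL4I1 entry at chr19:49929455-49929754 on the minus strand.
CD83: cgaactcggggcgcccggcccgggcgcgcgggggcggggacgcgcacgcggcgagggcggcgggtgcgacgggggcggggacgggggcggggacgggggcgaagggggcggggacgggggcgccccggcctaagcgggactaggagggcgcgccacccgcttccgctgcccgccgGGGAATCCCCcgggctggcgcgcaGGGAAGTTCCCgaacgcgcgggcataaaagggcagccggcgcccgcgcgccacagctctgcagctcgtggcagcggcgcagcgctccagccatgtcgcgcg
CD274: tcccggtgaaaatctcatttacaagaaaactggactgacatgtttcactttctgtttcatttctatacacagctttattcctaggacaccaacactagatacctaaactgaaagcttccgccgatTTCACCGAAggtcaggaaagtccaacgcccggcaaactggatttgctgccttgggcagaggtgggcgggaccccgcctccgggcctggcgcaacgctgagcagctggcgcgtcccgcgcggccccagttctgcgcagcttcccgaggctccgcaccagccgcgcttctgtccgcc
IL4I1: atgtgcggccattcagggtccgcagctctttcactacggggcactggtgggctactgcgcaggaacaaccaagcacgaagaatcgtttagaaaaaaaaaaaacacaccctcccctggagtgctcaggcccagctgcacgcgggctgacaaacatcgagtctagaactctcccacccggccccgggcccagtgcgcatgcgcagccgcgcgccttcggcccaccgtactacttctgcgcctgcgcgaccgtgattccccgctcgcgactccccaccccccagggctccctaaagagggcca

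The second CD83 entry held GGGAATCCCC at positions -75 to -66 from the start site and GGGAAGTTCC at -51 to -42. The second of these stretches matched both NF-kB patterns and overlapped a reverse-strand match, GGAAGTTCCC, at -50 to -41. Of 35116 promoters of this length, 1.6% held the pattern that ends in TTCC and 6.9% held the one that starts with GGGAA. The CD274 promoter held the STAT letters TTCACCGAA at -125 to -117, as 7.7% of promoters held that pattern. The printed IL4I1 promoter, both MUC1 entries, the CD80 entry and the first entries of CD83 and CD86 held none of the 4 patterns, and the second CD86 entry held GGGGTTTCCC on the reverse strand at -81 to -72. The AP-1 letters were in none of the 9 entries and in 7.7% of all promoters. A match says only that the letters are there.

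Each level below is a log2 intensity after background correction and quantile normalisation, and a probe was taken as detected on an array where its deposited detection p was under 0.01. Between 10713 and 12967 probes were detected on an array. The untreated duplicates resembled each other least. Over all features, duplicates differed with an SD of 0.26 for CD153-Fc plus T104, 0.23 for T104 and 0.24 for CD153-Fc, against 0.45 for untreated cells. Of 10 marker genes of this lymphoma 9 were detected on at least 2 arrays, with ALK and GZMB (granzyme B) on 8 of 8, but the CD30 gene TNFRSF8 was detected only on 1 CD153-Fc and 1 untreated array. None of the 4 B cell markers with a probe was detected. Of 8 myeloid and dendritic cell markers CD14, LYZ, CD1C, CLEC9A and FCGR3A were at background on every array, ITGAX was detected on 2 untreated arrays, and CD68 and CSF1R were detected on all 8.

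CD274, both CD83 probes and 2 of the 3 MUC1 probes were detected on all 8 arrays. IL4I1 was detected on all 6 treated arrays and on neither untreated array. CD86 came in at the edge of detection, and CD80 and PDCD1LG2 were at background in every group. In the plot of levels by array the treated groups stand above untreated cells for CD83, IL4I1 and CD274, by less for MUC1, and run level for the rest.

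**Figure D1:**
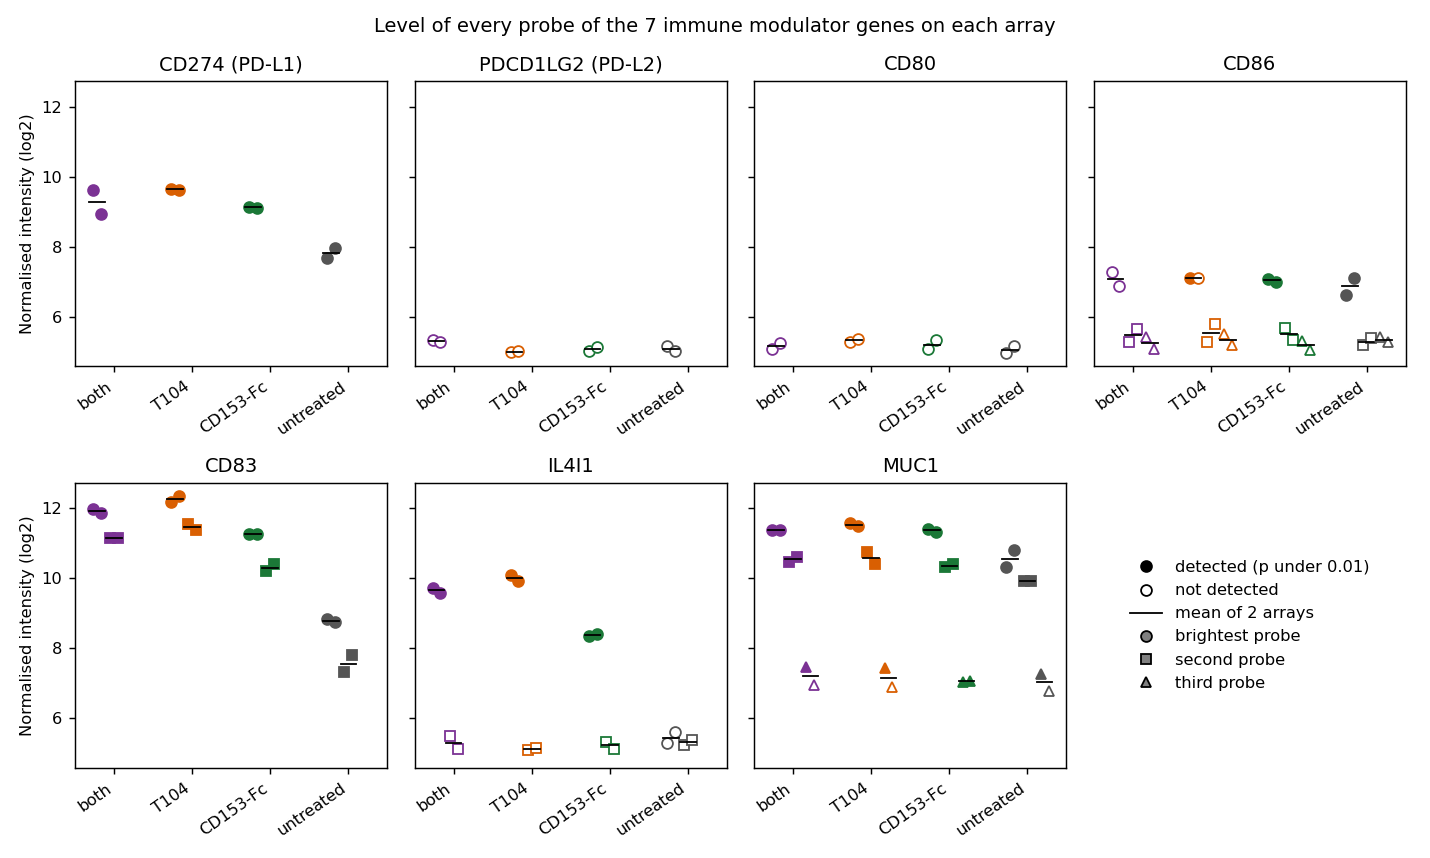
Normalised log2 intensity of each of the 13 probes on each of the 8 arrays, with groups from left to right as CD153-Fc plus T104 ("both"), T104, CD153-Fc and untreated. Filled symbols were detected and open ones were not, symbol shapes tell the probes of a gene apart, and lines are means of 2 arrays. The brightest CD83 probe sits near 12 in the groups given T104 and near 9 in untreated cells, and CD80 and PDCD1LG2 stay near 5 in all groups.

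CD83 was high in all treated cells. Its brightest probe (ILMN_1780582) read 11.98 and 11.87 with CD153-Fc plus T104, 12.18 and 12.37 with T104 and 11.26 and 11.28 with CD153-Fc, against 8.83 and 8.75 in untreated cells. By group mean the order was T104, then the combination, then CD153-Fc, then untreated. Before normalisation the same probe had intensities of 3817 and 3787, 4738 and 5766, and 2392 and 2492 in those treated groups, against 638 and 543 in untreated cells, so the gap was there in the raw values. In RNA from whole cultures, fewer expressing cells and less RNA per cell cannot be told apart. Over untreated cells the difference was 3.13 ± 0.15 log2 (SE) or 8.77-fold for the combination, 3.48 ± 0.15 or 11.2-fold for T104, and 2.48 ± 0.15 or 5.59-fold for CD153-Fc (n = 2 arrays per group).

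The second CD83 probe (ILMN_2328666), annotated to another transcript of the gene, ran in parallel. It read 11.15 and 11.17 with the combination, 11.56 and 11.40 with T104 and 10.21 and 10.40 with CD153-Fc, against 7.33 and 7.80 in untreated cells. Its differences from untreated cells were 3.60 ± 0.18, 3.92 ± 0.18 and 2.74 ± 0.18 log2 for the combination, T104 and CD153-Fc. The order of the groups was the same with either probe, and untreated cells were again far below the rest.

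IL4I1 was detected only in treated cells. Its brighter probe (ILMN_1659960) read 9.74 and 9.59 with CD153-Fc plus T104, 10.09 and 9.93 with T104 and 8.35 and 8.42 with CD153-Fc, against 5.28 and 5.60 in untreated cells. In untreated cells the raw intensities were 113 and 135, with detection p of 0.339 and 0.0843, so only a bound on the fold can be given there. Taking for each untreated array the lowest signal of a detected probe as the ceiling, IL4I1 on the background-corrected and normalised scale was at least 7.68-fold higher with the combination, at least 9.76-fold higher with T104 and at least 3.17-fold higher with CD153-Fc. These bounds hold for that scale alone: without background correction the differences were 2.88 log2 for the combination, 3.19 for T104 and 1.80 for CD153-Fc. The normalised means were 9.66 ± 0.11 for the combination, 10.01 ± 0.12 for T104 and 8.39 ± 0.05 for CD153-Fc, against 5.44 ± 0.22 for untreated cells (SD, n = 2 arrays each).

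The other IL4I1 probe (ILMN_1797631), annotated to the same transcript, was detected on none of the 8 arrays. Its group means were 5.30, 5.12 and 5.22 for the combination, T104 and CD153-Fc, against 5.31 for untreated cells. The IL4I1 account therefore rests on a single probe, and the probes of this gene disagree.

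CD274, the PD-L1 gene, was present in untreated cells and higher after each treatment. Its single probe (ILMN_1701914) read 9.62 and 8.93 with CD153-Fc plus T104, 9.65 and 9.62 with T104 and 9.13 and 9.12 with CD153-Fc, against 7.68 and 7.97 in untreated cells. The combination spanned the range from below CD153-Fc to the level of T104. Raw intensities showed the same split, with 805 and 572 for the combination, 885 and 922 for T104 and 617 and 642 for CD153-Fc, against 342 and 358 for untreated cells. The differences from untreated cells were 1.45 ± 0.22 log2 or 2.73-fold for the combination, 1.81 ± 0.22 or 3.51-fold for T104 and 1.29 ± 0.22 or 2.45-fold for CD153-Fc. For the combination the value was 1.80 without its replicate 2 and 1.10 without its replicate 1.

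MUC1 was bright throughout. Its brightest probe (ILMN_1756992) read 11.37 and 11.40 with CD153-Fc plus T104, 11.58 and 11.49 with T104 and 11.41 and 11.34 with CD153-Fc, against 10.33 and 10.80 in untreated cells. The treated groups lay close together. The differences from untreated cells were 0.82 ± 0.17 log2 for the combination, 0.97 ± 0.17 for T104 and 0.81 ± 0.17 for CD153-Fc, which are 1.76-fold, 1.96-fold and 1.75-fold. The size depended on the untreated array: without untreated replicate 1 the differences were 0.58, 0.73 and 0.57 for the combination, T104 and CD153-Fc, and without untreated replicate 2 they were 1.06, 1.21 and 1.04.

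The other MUC1 probes moved less. The second (ILMN_2371911) read 10.47 and 10.61 with the combination, 10.76 and 10.42 with T104 and 10.33 and 10.41 with CD153-Fc, against 9.93 and 9.93 in untreated cells. The third (ILMN_1677314) was detected on 5 of 8 arrays, with group means of 7.22, 7.16 and 7.06 for the combination, T104 and CD153-Fc, against 7.03 for untreated cells. Its groups overlapped, with differences from untreated cells of 0.03 to 0.19 log2 (SE 0.28). The 3 probes carry different MUC1 transcripts in the annotation.

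CD86 stayed near the detection limit. Its brightest probe (ILMN_1714602) read 7.27 and 6.87 with CD153-Fc plus T104, 7.11 and 7.11 with T104 and 7.08 and 6.99 with CD153-Fc, against 6.61 and 7.11 in untreated cells. It was detected on 0 of 2 arrays for the combination, 1 of 2 for T104 and 2 of 2 for CD153-Fc, and on 2 of 2 untreated arrays. The groups overlapped, and the differences from untreated cells lay between 0.17 and 0.25 log2 with an SE of 0.25. The other CD86 probes were detected on no array.

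PDCD1LG2, the neighbour of CD274 on chromosome 9, read 5.34 and 5.26 with the combination, 4.98 and 5.02 with T104 and 5.00 and 5.14 with CD153-Fc, against 5.15 and 5.02 in untreated cells. CD80 read 5.08 and 5.25 with the combination, 5.28 and 5.37 with T104 and 5.06 and 5.33 with CD153-Fc, against 4.95 and 5.16 in untreated cells. Neither probe passed detection on any of the 8 arrays, so these values are background readings and no fold is given. On these arrays the PD-1 ligand with a signal was PD-L1.

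**Figure D2:**
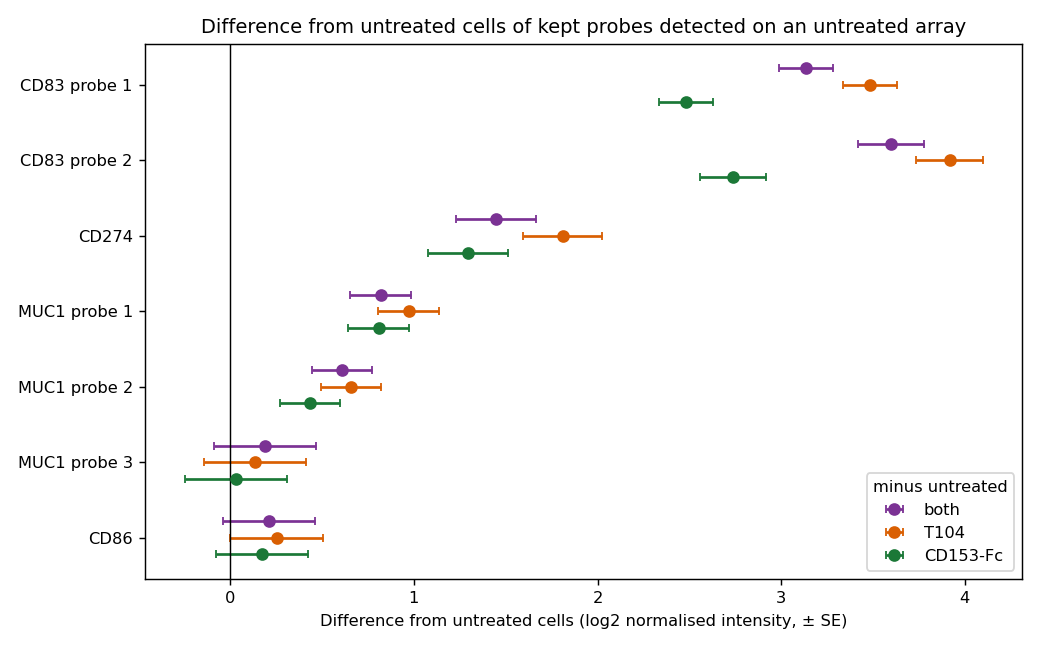
Difference from untreated cells in log2 normalised intensity for the 7 kept probes that were detected on at least 1 untreated array, with bars of 1 SE; IL4I1, undetected in untreated cells, is left out; CD153-Fc plus T104 ("both"), T104 and CD153-Fc run from top to bottom within a probe. T104 gives the highest point for both CD83 probes, at 3.48 and 3.92, and for CD274, at 1.81, while CD86 and the third MUC1 probe lie near 0.

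Whether the treatments differed from each other was tested between the treated groups, without the untreated arrays in the contrast. The treated arrays also entered the comparisons by which the genes came to be listed. The p-values of these genes make no allowance for that choice. CD80 and PDCD1LG2 failed the detection filter, which left 5 of the 7 genes among 10183 features tested with limma. Over all features the median difference was between -0.01 and 0.01 log2 in each of the 3 comparisons.

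CD83 and IL4I1 read higher with the antibody than with the ligand. In T104 against CD153-Fc, IL4I1 differed by 1.62 ± 0.19 log2 (95% interval 1.22 to 2.02), or 3.08-fold, with an adjusted p of 8.60e-04 by limma with Benjamini-Hochberg adjustment. CD83 differed by 1.00 ± 0.15 log2 (0.68 to 1.32), or 2.00-fold, with an adjusted p of 0.00530 by limma. Its second probe differed by 1.18 ± 0.18 log2, with an adjusted p of 0.00745 by limma when every kept probe was a feature, a setting added after the data had been seen. For both genes each T104 array was above each CD153-Fc array, as for 21.8% of all features. So 2 of 5 genes were called higher in this comparison, and of all features 0.540% were called higher and 0.609% in either direction. Since T104 and CD153-Fc arrays also helped to pick the 5 genes, nothing is read from these shares.

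The CD83 call rested on all 4 arrays. Its value was 0.90 to 1.09 with any array left out, but its adjusted p by limma was 0.0871 and 0.218 when T104 replicate 1 or 2 was left out, and 0.137 and 0.112 when replicate 1 or 2 of CD153-Fc was. The IL4I1 call was lost only without T104 replicate 1, with an adjusted p of 0.0589 by limma.

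CD274 was 0.52 ± 0.22 log2 higher with T104 than with CD153-Fc (95% interval 0.05 to 0.99), and was not called, with an adjusted p of 0.521 by limma. Each T104 array was above each CD153-Fc array for CD274, a pattern that 21.8% of all features showed. When only the arrays of these groups entered the fit, CD274 was called, with an adjusted p of 0.0256 by limma. MUC1 differed by 0.16 ± 0.17 log2 (-0.20 to 0.53) and CD86 by 0.08 ± 0.25 (-0.46 to 0.62), and neither was called, with adjusted p of 0.892 and 0.981 by limma.

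Adding T104 to the ligand was tested as the combination against CD153-Fc alone. IL4I1 was higher by 1.28 ± 0.19 log2 (95% interval 0.88 to 1.68), or 2.42-fold, with an adjusted p of 0.0121 by limma. CD83 was 0.65 ± 0.15 log2 above CD153-Fc alone (0.33 to 0.97) and did not pass, with an adjusted p of 0.187 by limma. It passed without untreated replicate 1 (adjusted p 0.00259 by limma), without untreated replicate 2 (0.00280) and with only the compared groups in the fit (0.00465). CD274 differed by 0.16 ± 0.22 log2 (-0.31 to 0.62), MUC1 by 0.01 ± 0.17 (-0.35 to 0.38) and CD86 by 0.04 ± 0.25 (-0.50 to 0.58), and none of them was called. That made 1 of 5 genes called, and 0.187% of all features were called, all of them higher; here too nothing is read from the shares.

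The IL4I1 call in the combination against CD153-Fc was lost without any 1 of the 6 treated arrays, with adjusted p between 0.0741 and 0.377 by limma, and under median scaling, with 0.0902. Its value stayed between 1.20 and 1.35 log2 with an array left out. For CD274 the difference was -0.19 log2 without replicate 1 of the combination.

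Adding the ligand to the antibody was tested as the combination against T104 alone. CD83 was lower by 0.35 log2 (-0.35 ± 0.15, 95% interval -0.67 to -0.03), IL4I1 by 0.35 (-0.35 ± 0.19, -0.75 to 0.05) and CD274 by 0.36 (-0.36 ± 0.22, -0.83 to 0.11). MUC1 differed by -0.15 ± 0.17 log2 (-0.52 to 0.21) and CD86 by -0.04 ± 0.25 (-0.58 to 0.50). All 5 values were below 0, but the third MUC1 probe stood at 0.055 ± 0.28 log2. CD86 turned to 0.16 without replicate 2 of the combination. None of the 5 genes was called by limma (adjusted p 0.999 for each), and 1 of 5, CD83, had an unadjusted p under 0.05. Over all features 0.00% were called, 418 of 10183 had an unadjusted p under 0.05, and 51.9% were above 0. Nothing is read from the shared sign of the 5. The intervals still allow CD83 a level as low as 0.63 times, and CD274 one as low as 0.56 times, that with T104 alone.

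**Figure D3:**
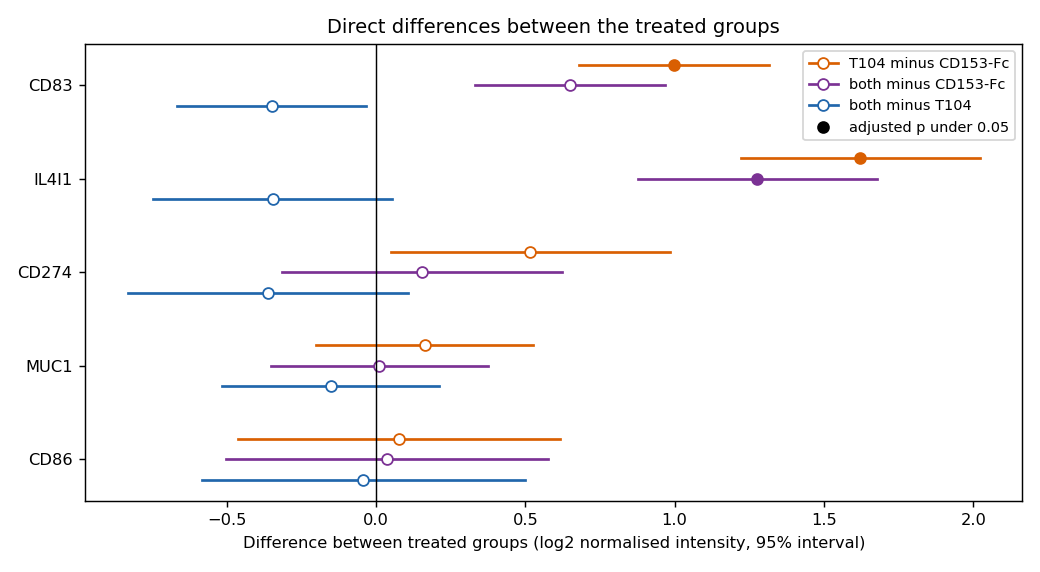
Differences between treated groups in log2 normalised intensity for the 5 genes that passed the detection filter, with 95% intervals; filled points had an adjusted p under 0.05. IL4I1 lies to the right of 0 against CD153-Fc with T104 alone and with the combination, CD83 with a filled point for T104 alone, and the points for the combination minus T104 lie below 0.

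On the log2 scale the combination fell short of the sum of the single treatments for CD83 and CD274. The departure from that sum was -2.83 ± 0.21 for CD83 and -1.66 ± 0.31 for CD274. For MUC1 the probes differed, with -0.96 ± 0.24 for the brightest, -0.49 ± 0.23 for the second (95% interval -0.98 to 0.01) and 0.02 ± 0.39 for the third. None is given for IL4I1, undetected in untreated cells, or for CD86, undetected with the combination. These values contain the differences from untreated cells that picked the genes and carry no test. As levels, the combination stood between CD153-Fc alone and T104 alone for CD83 and IL4I1.

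The levels of CD83 and IL4I1 followed each other closely over the 8 arrays (Pearson r 0.993), and CD274 tracked CD83 with 0.960 and IL4I1 with 0.957. MUC1 had r of 0.932 with CD83, 0.935 with IL4I1 and 0.939 with CD274. The arrays form 4 treatment groups, all pairs share the step between untreated and treated cells, and these values are descriptions of that step. IL4I1 was undetected on the untreated arrays, so its r values rest in part on background readings.

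Among 8509 named genes, those most like CD83 over the 8 arrays were TNFAIP3 (r 0.998), which encodes the ubiquitin editor A20, BDNF (0.997), a neurotrophin, DRAM1 (0.995), a regulator of autophagy, FAM110A (0.994) and NFKBIA (0.994), the NF-kB inhibitor IkB alpha. For IL4I1 they were DRAM1 (0.998), FAM110A (0.997), the sugar transporter gene SLC2A6 (0.997), RGS1 (0.996), a regulator of G protein signalling, and the chemokine gene CXCL8 (0.996). DRAM1 and FAM110A were in the closest 5 of CD83 and of IL4I1, which themselves followed each other closely. TNFAIP3 read 12.47 and 12.47 with CD153-Fc plus T104, 12.82 and 12.77 with T104 and 11.98 and 11.97 with CD153-Fc, against 10.17 and 9.96 in untreated cells. All these genes were picked for their likeness on the same arrays, so a group order shared with CD83 or IL4I1 largely follows from that choice.

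CD274 had other closest genes. They were CYLD (r 0.993), a deubiquitinase that restrains NF-kB signalling, TNFAIP8 (0.988), AQP12A (0.980), GCH1 (0.980), the first enzyme of tetrahydrobiopterin synthesis, and RRP36 (0.979), a ribosome biogenesis factor. CYLD read 8.36 and 7.87 with the combination, 8.44 and 8.29 with T104 and 8.05 and 8.15 with CD153-Fc, against 6.95 and 7.15 in untreated cells. Like CD274, CYLD was lower in replicate 2 of the combination than in its replicate 1. The likeness to CD274 was chosen over the same arrays and so includes that split.

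MUC1 was closest to SLC16A9 (r 0.990), a member of the monocarboxylate transporter family, EFEMP2 (0.989), an extracellular matrix protein gene, PATL1 (0.986), a factor of mRNA decay, SMAP2 (0.985) and KIAA1217 (0.984). SMAP2 read 14.10 and 13.98 with the combination, 14.30 and 14.16 with T104 and 13.93 and 14.04 with CD153-Fc, against 12.76 and 13.48 in untreated cells. In untreated cells BDNF, AQP12A, EFEMP2 and IL4I1 itself read below the lowest detected level of their arrays. Any likeness that involves these genes, with all of the closest genes of IL4I1, therefore rests in part on background readings. AQP12A and EFEMP2 also did so on replicate 2 of the combination, replicate 2 of T104 and replicate 1 of CD153-Fc, and EFEMP2 on replicate 1 of the combination as well. None of the closest 5 of MUC1 or CD274 was among those of another of these genes.

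**Figure D4:**
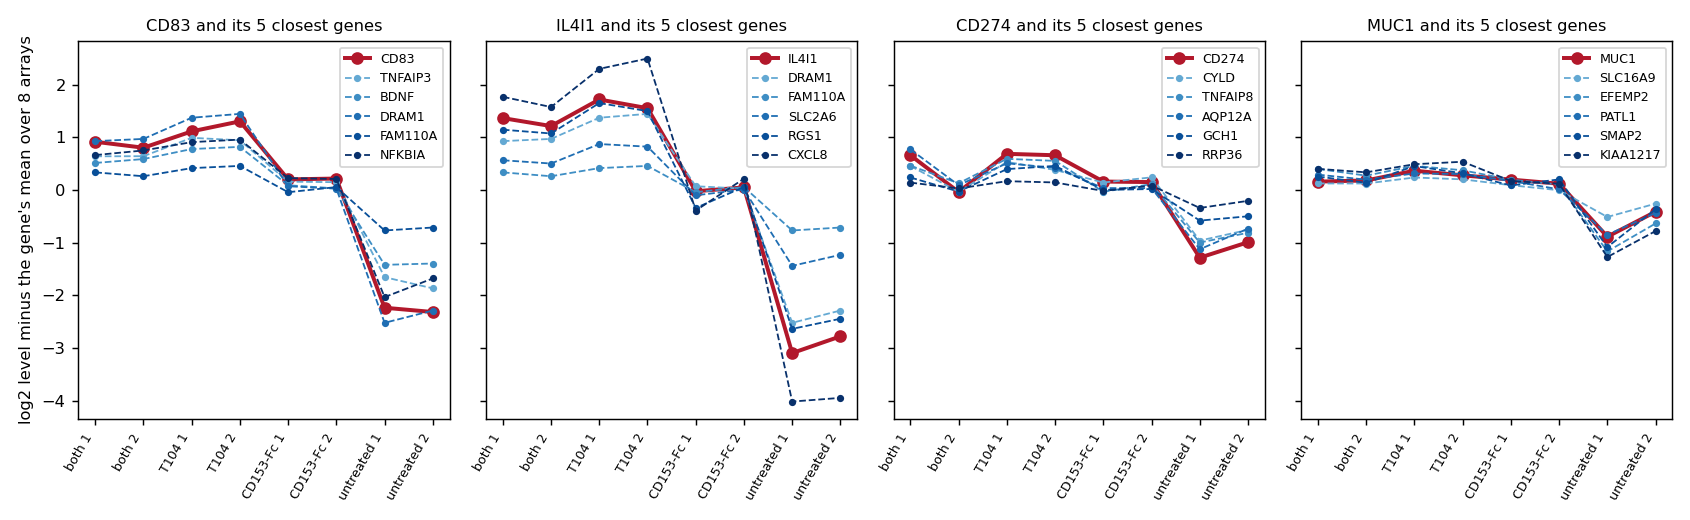
Level of CD83, IL4I1, CD274 and MUC1 (thick red lines) and of the 5 genes most like each (dashed blue lines) on each of the 8 arrays, as log2 intensity minus the gene's own mean over the arrays; lines only join the arrays. The lines drop at the 2 untreated arrays in every panel, and CD274 and CYLD dip at replicate 2 of CD153-Fc plus T104.

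The related genes of these pathways were read from lists of relatives and partners, and their differences from untreated cells were tested with limma over the same 10183 features. With T104 against untreated cells 10.5% of all features were called, 5.11% higher and 5.41% lower. With the combination 6.67% were called, 3.82% higher and 2.85% lower, and with CD153-Fc 1.37%, of which 1.10% higher. An unadjusted p under 0.05 by limma was seen for 2618 of the 10183 features with T104, 2299 with the combination and 1526 with CD153-Fc. The counts of unadjusted p given for the lists below stand beside these, and nothing is read from them. These 3 comparisons share the untreated arrays. In the 3 comparisons between treated groups none of the genes on the 7 lists was called by limma, and in each of them at most 2 genes of any list had an unadjusted p under 0.05. Of all 10183 features, 846 had one for T104 minus CD153-Fc, 818 for the combination minus CD153-Fc and 418 for the combination minus T104.

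Most other B7 and CD28 family genes were at background. Of 13, 10 had a probe, and only CD276 (B7-H3) and ICOSLG, the ligand of ICOS, were detected on at least 2 arrays. CD28, CTLA4 and ICOS, receptors of this family on T cells, were detected on none. PDCD1, the gene of the receptor PD-1, had no probe with its symbol and was not read. CD276 read 10.16 and 10.09 with the combination, 10.04 and 10.29 with T104 and 9.93 and 10.13 with CD153-Fc, against 9.85 and 9.58 in untreated cells. Neither gene was called with any treatment, with 1 of 2 at an unadjusted p under 0.05 for the combination, 1 for T104 and 0 for CD153-Fc, and CD276 differed by 0.45 ± 0.17 log2 with T104 (adjusted p 0.111 by limma).

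Of 15 genes known to regulate PD-L1, 12 were tested, and with T104 2 were higher, 0 were lower and 10 were not called. IRF1, a transcription factor that acts on the PD-L1 promoter after interferon, read 10.51 and 10.57 with the combination, 10.89 and 10.67 with T104 and 10.25 and 10.46 with CD153-Fc, against 8.65 and 10.03 in untreated cells. The untreated arrays lay far apart. IRF1 rose by 1.44 ± 0.32 log2 with T104 and by 1.20 ± 0.32 with the combination (adjusted p 0.0109 and 0.0396 by limma). With T104 the value was 0.75 without untreated replicate 1 and 2.13 without untreated replicate 2, and the call was lost without T104 replicate 1 or 2 (adjusted p 0.131 and 0.0871 by limma) and with only the compared groups in the fit (0.0803).

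JAK1, a kinase of interferon receptors, read 11.50 and 11.27 with T104, against 10.99 and 10.58 in untreated cells. It rose by 0.60 ± 0.17 log2 (adjusted p 0.0445 by limma), with 0.40 and no call without untreated replicate 2 (adjusted p 0.0510), and its call was lost without any 1 of the 6 treated arrays and in 4 other settings. With the combination IRF1 alone of the 12 was called, and with CD153-Fc none was, where 3 had an unadjusted p under 0.05. STAT3, through which ALK acts on PD-L1, differed by 0.14 ± 0.15 log2 with T104, and CMTM6, a protein that keeps PD-L1 on the cell surface, by 0.16 ± 0.16 (adjusted p 0.600 and 0.561 by limma).

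The genes beside CD274 on chromosome 9 were also read, and whether the region moved as a whole was not tested. Of 13, 6 were tested and none was called by limma with any treatment. An unadjusted p under 0.05 was seen for 1 of 6 with T104 and for 0 with the combination or CD153-Fc. PLGRKT, the gene just before CD274, differed by -0.08 ± 0.17 log2 with T104 (adjusted p 0.804 by limma). JAK2 read 7.78 and 7.81 with the combination, 7.40 and 7.65 with T104 and 7.67 and 8.00 with CD153-Fc, against 8.20 and 8.09 in untreated cells, a difference of -0.62 ± 0.20 log2 with T104 (adjusted p 0.0691 by limma). In other settings JAK2 was called with T104, under median scaling (adjusted p 0.0261 by limma) and without the intensity trend (0.0458). The median of the 6 with T104 was -0.25 log2, and the median of all features was -0.02. CD274 stood at 1.81, but it belongs to the list drawn up from such differences, so nothing is read from the gap.

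Of 19 genes of tryptophan and phenylalanine breakdown and the aryl hydrocarbon receptor, 9 were tested and none was called with any treatment. IDO1, IDO2 and TDO2, the enzymes that open the tryptophan ring, and KYNU and KMO, which act after them, were detected on none of the 8 arrays. The receptor gene AHR differed by -0.05 ± 0.15 log2 with T104 (adjusted p 0.854 by limma). Its target TIPARP read 11.30 and 11.45 with the combination, 11.44 and 11.65 with T104 and 11.55 and 11.53 with CD153-Fc, against 10.92 and 11.19 in untreated cells. TIPARP differed by 0.49 ± 0.16 log2 with T104 and was not called (adjusted p 0.0646 by limma). Other targets on the list did not rise with T104: CYP1B1 differed by -0.26 ± 0.19 log2 and NQO1 by -0.04 ± 0.15. CYP1A1 was detected on neither T104 array and AHRR on no array. Of the 9 tested genes, 1 had an unadjusted p under 0.05 with the combination, 1 with T104 and 2 with CD153-Fc.

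Of 16 genes of antigen-presenting cell activation, where CD83 is a classical marker, 7 were tested. With T104 1 was higher, 1 was lower and 5 were not called. CCR7, the receptor that guides activated cells to lymph nodes, read 13.78 and 13.52 with the combination, 13.67 and 13.65 with T104 and 13.15 and 12.94 with CD153-Fc, against 11.70 and 12.24 in untreated cells. CCR7 rose by 1.68 ± 0.17 log2 with the combination, 1.69 ± 0.17 with T104 and 1.07 ± 0.17 with CD153-Fc (adjusted p 7.18e-05, 4.34e-05 and 0.00733 by limma). FSCN1, an actin bundling protein of mature dendritic cells, fell by 0.54 log2 with T104 (-0.54 ± 0.15, adjusted p 0.0383 by limma), a call lost without T104 replicate 1 or 2, without replicate 1 or 2 of the combination, and in 4 other settings. CD40, LAMP3 and ICAM1 were detected on no array, and HLA-DRA differed by -0.07 ± 0.10 log2 with T104 (adjusted p 0.694 by limma).

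Of 18 mucins and MUC1 partners 9 were tested. MUC2, MUC4, MUC13 and MUC16, the mucins of the list that had a probe, were detected on none of the 8 arrays. None of the 9 was called by limma with any treatment. An unadjusted p under 0.05 was seen for 2 with the combination, 3 with T104 and 2 with CD153-Fc. Over all 10183 features it was seen for 2299, 2618 and 1526 in that order. GCNT1, an enzyme that branches mucin sugar chains, had the smallest p and differed by -0.67 ± 0.20 log2 with T104 (adjusted p 0.0518 by limma). GCNT1 was called by limma without background correction (adjusted p 0.0491) and with the deposited processed intensities (0.0490). It was also called with the mean of the kept probes (0.0474) and under median scaling (0.0321). The value was -0.44 without untreated replicate 1 and -0.90 without untreated replicate 2.

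Of 27 other inhibitory ligands, receptors and enzymes 12 were tested, and with T104 1 was higher, 0 were lower and 11 were not called. The 1 was NECTIN2, a ligand of TIGIT and CD226, which read 8.80 and 8.78 with the combination, 8.92 and 9.04 with T104 and 8.35 and 8.27 with CD153-Fc, against 8.03 and 8.20 in untreated cells. The groups given T104 had higher means than the others. NECTIN2 rose by 0.68 ± 0.17 log2 with the combination and 0.87 ± 0.17 with T104 (adjusted p 0.0321 and 0.00574 by limma), and was not called with CD153-Fc (0.20 ± 0.17, adjusted p 0.615). With T104 its adjusted p by limma was just under the threshold without T104 replicate 1, 0.0903 without T104 replicate 2 and 0.0503 with only the compared groups in the fit. LAG3, TIGIT, LGALS9 and ENTPD1 were detected on none of the 8 arrays.

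**Figure D5:**
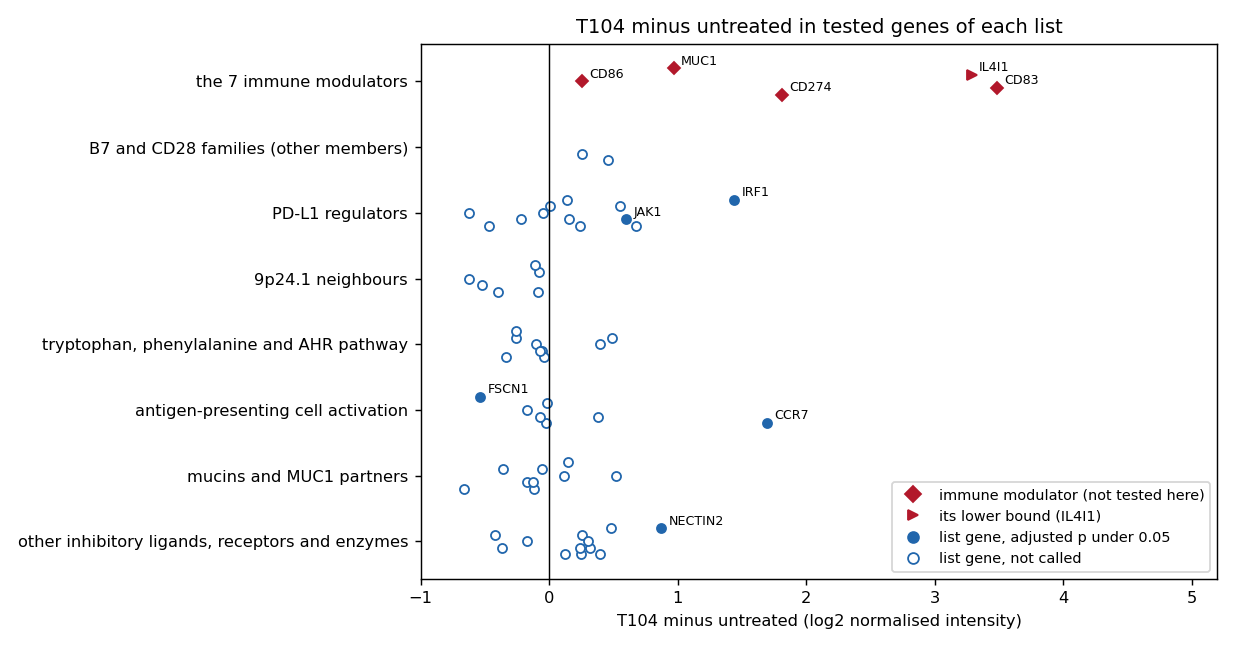
T104 minus untreated in log2 normalised intensity for the tested genes of each list; red diamonds are the immune modulator genes, given without a test, filled blue points are list genes with an adjusted p under 0.05 and open points were not called. IL4I1 is drawn at its lower bound. The list genes run from -0.67 for GCNT1 to 1.69 for CCR7, and CD83, IL4I1 and CD274 (1.81) lie beyond them. The immune modulator genes were drawn up from such differences, together with their relatives, so nothing is read from that gap.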

How the data were processed

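Total RNA of 8 Karpas299 cultures, 2 per group, was read on Illumina HumanHT-12 v3 arrays. The authors deposited probe intensities on a linear scale that were not normalised, each beside its detection p-value on that array, per the file headers, and a table of processed intensities made by steps that the sources used here do not give. The submitters' processing notes name GenomeStudio.

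Unnormalised intensities were background-corrected, with background taken from the detection p-values, and quantile-normalised with neqc (offset 16, limma 3.58.1, R 4.3.3), then put on the log2 scale. Of 48797 probes, 28093 had 1 gene symbol in the platform annotation, 13 several and 20691 none. Probes detected (p under 0.01) on at least 2 of 8 arrays were kept (12543), and the brightest kept probe stood for a gene, which gave 10183 features (8509 named, 1674 unnamed probes). All 8 arrays entered 1 limma fit with a mean per group and an intensity trend (4 residual degrees of freedom), and p-values were adjusted over all features by Benjamini-Hochberg, with a call at an adjusted p under 0.05. The number of arrays limits the precision.

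Genes and lists were chosen with earlier results of these data known. Beside every probe of the 7 genes, the text names from each list up to 4 called genes of the smallest p with T104, or the 1 of smallest p where none was called, and the 5 genes most like each of 4 genes. Other list members are named for their role or as undetected and were chosen after their values were seen. On simulated data of this size, 92% of 100 features changed by 1 log2 unit and 100% of 100 changed by 2 were called for T104 against CD153-Fc, with 14 false calls among 206. The simulation gave a feature the same spread in all groups, whereas the real untreated duplicates differed more than the others. It also planted more changes than the 62 features called on the real arrays, so its rates need not hold for them. Replicate numbers did not pair the arrays: deviations of same-numbered arrays correlated between -0.10 and 0.01. Alternatives were the background correction, offset, scaling, filter, probe rule, trend, arrays in the fit, a replicate block, and each array left out.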

Additional observations from a re-analysis of the deposited data

How the results depend on the processing

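Of 294 reanalysed values of the tested differences of the 5 genes, 271 kept their direction and their side of the threshold, 12 lost their call, 4 gained one and 7 changed sign. IL4I1 and CD86 were not tested where detection on all 8 arrays was required. The sign changes were of values that were never called: CD274 in the combination minus CD153-Fc (-0.19 to 0.50 with an array left out, lowest without both replicate 1), CD86 in the same comparison (-0.10 with median scaling, -0.17 to 0.24 with an array left out, also -0.008 without CD153-Fc replicate 2) and in the combination minus T104 (-0.24 to 0.16, highest without both replicate 2), and MUC1 in the combination minus CD153-Fc (-0.056 with median scaling, -0.028 to 0.050 with an array left out, lowest without CD153-Fc replicate 2). The cause was not tested. For the list genes chosen by the smallest p with T104, 180 values of T104 minus untreated were reanalysed. Of these, 146 kept their direction and their side of the threshold, 24 lost their call and 10 gained one. The gains were of GCNT1, JAK2, TIPARP and CD276.
Counts of features called, over all features, moved more. With an array left out they ran from 10 to 369 for T104 minus CD153-Fc (62 in the main analysis), 1 to 262 for the combination minus CD153-Fc (19), 0 to 62 for the combination minus T104 (0), 188 to 3345 for the combination minus untreated (679), 286 to 3419 for T104 minus untreated (1071), 37 to 2624 for CD153-Fc minus untreated (140) and 26 to 1722 for the departure from the sum of the single treatments (136). The highest counts came without an untreated array. With only the compared groups in the fit the counts in that order were 412, 198, 30, 180, 399 and 33. Median scaling gave 9 for the combination minus CD153-Fc, 1638 (210 higher, 1428 lower, against 389 and 290) for the combination minus untreated, 90 (57 and 33, against 112 and 28) for CD153-Fc minus untreated and 74 (21 and 53, against 53 and 83) for the departure, and split T104 minus untreated into 317 higher and 910 lower, against 520 and 551. It moved the median of all features by up to -0.31 log2, in the combination minus untreated. Detection on all 8 arrays gave 41 for T104 minus CD153-Fc and 9 for the combination minus CD153-Fc. No filter gave 92 for CD153-Fc minus untreated and 83 for the departure, and no intensity trend gave 11 for the combination minus CD153-Fc and 90 for the departure. The replicate block gave 88 for CD153-Fc minus untreated, and of the calls named here it lost FSCN1 with T104 (adjusted p 0.0528 by limma).
Of the 387 reanalysed values of the genes' untested differences, 305 moved by less than the spread between replicates and 82 by more. For IL4I1 the difference of T104 from untreated cells was 3.19 log2 without background correction, against 4.57 log2 with it; its untreated level was below detection.
Values at background, as for CD80 and PDCD1LG2 in all groups and IL4I1 in untreated cells, have no order.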
